A study of Drosophila melanogaster with 3 samples.

Results

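Dense runs of Ultrabithorax (Ubx) peaks on the large autosomal arms of the fly genome were described from a chromatin immunoprecipitation sequencing (ChIP-seq) peak list. A run was a series of peaks on 2L, 2R, 3L or 3R in which each peak midpoint lay at most 5000 bp from the next, and the runs of interest were those with 6 or more peaks. This rule found 195 runs that held 1545 peaks, out of 8123 peaks on the 4 arms (19.0%) and 10337 peaks in the whole list. The members were chosen by their positions, so their closeness is a description and not a finding. Positions are 1-based coordinates of the dm3 build, in which the authors' list is given.

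Ubx is a Hox transcription factor that gives segments of the thorax and abdomen their identity, and it is best known for making the third thoracic segment of the fly form halteres instead of wings. Hox proteins recognise short AT-rich DNA motifs, often together with the cofactors Extradenticle and Homothorax, and their target enhancers commonly hold several such motifs. Many developmental genes of flies are surrounded by several enhancers that lie far apart.

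The cells were S2-DRSC, a Drosophila line derived from late embryos, stably transfected with Ubx that carried an HA epitope tag. All samples carried this transgene, and all were treated with copper sulphate (10 micromolar, 24 h). There were 2 immunoprecipitations with an antibody against HA and 1 input of the same cells, and the labels do not say whether the replicates came from separate cultures or whether the line is 1 clone. The 2 immunoprecipitations share 1 peak list, so no value below has a replicate error, no comparison with the input could be made, and no test was run. How many reads lie behind a peak is unknown. The score of a peak is the authors' own value, and its definition is not given in the labels or the file.

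Most dense runs were short. Of the 195 runs, 67 had exactly 6 peaks (34.4%), 169 had 6 to 9 peaks and 26 had 10 or more, with a median of 7 peaks. The 17 runs with 12 or more peaks held 257 members, and 5 runs stood apart with 17, 18, 19, 21 and 28 peaks. The other 6578 peaks of the arms comprised 4570 peaks in 1646 runs of 2 to 5 peaks and 2008 peaks with no neighbour within the limit. At the edge of the rule, the 129 runs of 5 peaks just outside had a median span of 10.4 kb, a median coverage of 42.1% and a median of run-median scores of 24.9. The 67 runs of 6 peaks just inside had a median span of 12.2 kb, a median coverage of 42.0% and a median of run-median scores of 26.9. The numbers of runs thus fell off without a visible break at the limit of 6.

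**Figure D1:**
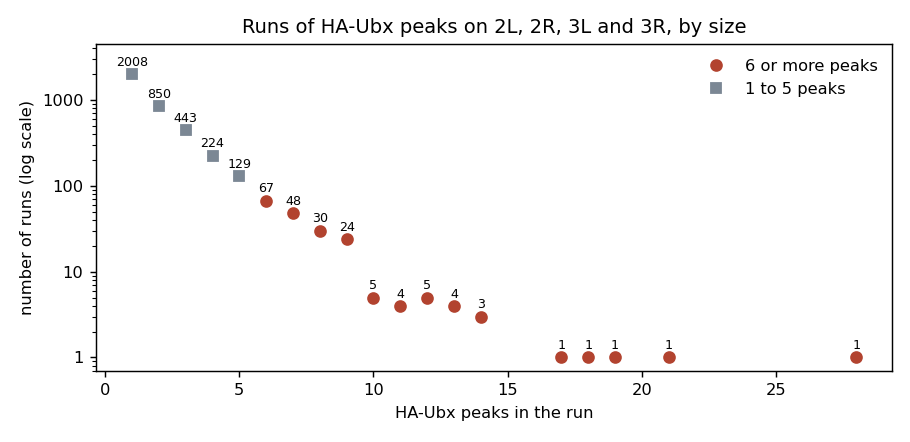
Number of runs (vertical axis, log scale) against the number of HA-Ubx peaks in the run, with circles for runs of 6 or more peaks and squares for runs of 1 to 5 peaks. The counts fall steadily from 67 runs of 6 peaks to 24 runs of 9 peaks, and 5 runs have 17 or more.

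The runs packed 19.0% of the peaks into a small part of the arms. Their spans, from the start of the first peak to the end of the last, added up to 3.06 Mb, or 3.17% of the 96.5 Mb between the first and last peaks of the 4 arms. Inside the runs there were 505 member peaks per Mb, against 70.4 other peaks per Mb outside them, a contrast that the rule builds in. Members covered 1.37 Mb and the other peaks 5.27 Mb, so members made up 20.6% of the length covered by peaks. Within the runs 44.6% of the sequence lay under a peak, and outside them 5.64% did, which the rule also builds in. A single run spanned between 5.63 and 57.0 kb with a median of 14.7 kb, and peaks covered between 17.2% and 84.1% of it with a median of 45.1%. The sparsest run, with 7 peaks, lay on 2L at 3449551 to 3472642. The most fully covered run, also with 7 peaks, lay on 3L at 19887480 to 19903650. The smaller runs of 2 to 5 peaks, which count as outside here, had a median coverage of 49.3%.

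Dense runs lay on all 4 arms and were most frequent on 3L. Arm 3L had 59 runs with 499 member peaks, which was 22.8% of its peaks (95% Wilson interval 21.1% to 24.6%). Arm 2L had 43 runs and 345 members (19.3%, 17.5% to 21.2%), and 3R had 56 runs and 417 members (18.0%, 16.5% to 19.6%). Arm 2R had the lowest share, with 37 runs and 284 members (15.6%, 13.96% to 17.3%). Per 10 Mb there were 24.1 runs on 3L, 20.1 on 3R, 18.7 on 2L and 17.5 on 2R. Peaks were sparser on the X chromosome, with 1344 over 22.3 Mb against 8123 over 96.5 Mb on the 4 arms. The same rule applied there gave 24 runs, or 10.8 per 10 Mb, with 213 member peaks (15.8%, 13.99% to 17.9%). These intervals cover counting error only and treat peaks as independent, which peaks of 1 run are not.

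Along the arms the runs were unevenly placed. Of 95 complete bins of 1 Mb, 18 held no member peak, and the median bin held 13. The fullest bin was on 3L at 10000001 to 11000000, where 50 of 87 peaks (57.5%) belonged to 6 runs. On 2L at 8000001 to 9000000, 49 of 142 peaks (34.5%) were members, in 7 runs. On 3R at 12000001 to 13000000, 49 of 125 peaks (39.2%) were members, in 5 runs. Empty bins were not always poor in peaks, since the bin on 2L at 20000001 to 21000000 held 92 peaks and the bin on 2R at 11000001 to 12000000 also held 92, none of them in a dense run. The complete bin nearest to the centromere was empty on each of the 4 arms, with 26 peaks on 2L, 25 on 2R, 15 on 3L and 89 on 3R, none of them in a dense run.

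The surroundings of the runs were also rich in peaks. By the rule no midpoint lies within 5000 bp of a run. From 5 to 50 kb on either side of the outer midpoints there were 120 peaks per Mb, against 84.2 peaks per Mb over the arms as a whole, a ratio of 1.42. The ratio was 1.51 on 3R, 1.45 on 3L, 1.35 on 2L and 1.29 on 2R. Flanks of 138 of the 195 runs (70.8%) were denser than their arm. The same windows around the 2008 peaks without a neighbour held 93.7 peaks per Mb. All these window counts include members of nearby dense runs. A peak that fell in several windows was counted in each of them. Taking each side of a run on its own, the next midpoint outside lay a median of 10.2 kb from the outer midpoint. A further peak lay within 10 kb at 192 of 389 run borders.

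Some runs lay close to one another. Whether such runs belong together was not tested, and their number was not compared with an expected number. The gap between adjacent runs had a median of 276 kb, but 13 of 191 gaps were at most 20 kb. Runs linked by such gaps formed 11 groups, which held 24 runs. The group with the most peaks, on 3R from 12031083 to 12111288, joined 3 runs with 36 peaks over 80.2 kb. Its middle run of 21 peaks had a median score of 65.3, and the runs before and after it, of 8 and 7 peaks, had median scores of 36.0 and 22.8. A second group of 3 runs, on 3L from 11197035 to 11291568, held 33 peaks over 94.5 kb, the longest span of any group. The median scores of its runs were close to one another at 24.3, 24.8 and 25.6.

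Within the runs, uncovered gaps between adjacent peaks were often short. Adjacent midpoints of members were a median of 1792.5 bp apart (interquartile range 1104.5 to 2991 bp), against 2018 bp (1138 to 3254 bp) in runs of 2 to 5 peaks. The uncovered gap between the edges of adjacent members had a median of 793 bp (234 to 2093.5 bp), against 1083.5 bp in runs of 2 to 5 peaks, and the smallest was 43 bp. It was under 1000 bp in 730 of 1350 adjacent pairs of members (54.1%) and in 1418 of 2924 pairs in the smaller runs (48.5%). Spacing is what the rule selects on, so these values describe the members and are not evidence of a difference. Joining members less than 1000 bp apart turned the 1545 peaks into 815 regions, with a median of 4 regions in a run. After joining, 33 of the 195 runs still held 6 or more separate regions and 5 runs became a single region. The longest unbroken chain of such neighbours comprised 14 peaks on 2R from 7072807 to 7088459.

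The run with the most peaks lay on 3L at 3404827 to 3461804. Its 28 peaks spread over 57.0 kb, the longest span of all, and covered 57.9% of it. Scores ran between 3.93 and 58.0 with a median of 25.3, so none reached the 58.3 that marks the top 10% of scores on the 4 arms. Its strongest peak, the 20th of 28, lay at 3445307 to 3446160. Its widest peak, of 4925 bp at 3428716 to 3433640, scored 21.7.

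The second run by number of peaks was the one with the most strong peaks. It lay on 3R at 12046792 to 12089926 and held 21 peaks over 43.1 kb, with a coverage of 48.8%. Scores ran between 16.8 and 105 with a median of 65.3, and 12 of the 21 peaks were in the top 10%. The strongest peaks stood in the middle part, with 105 at 12061977 to 12063732, 90.02 at 12067967 to 12069066 and 94.8 at 12071014 to 12072039. Towards the far end, scores of 22.2, 27.2 and 28.3 were followed by a close pair of narrow peaks that scored 73.3 and 65.9 and by a last peak that scored 16.8.

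The third run held 19 peaks on 3L at 11254285 to 11291568, with a median score of 25.6 and a highest score of 57.7. In its first 8 peaks the scores stayed between 10.8 and 39.97, and its 4 peaks above 50 all stood among the last 9. The fourth run, on 2R at 7072807 to 7095350, had the highest coverage of the 10 runs with the most peaks. Its 18 peaks covered 76.3% of 22.5 kb, and the largest distance between adjacent midpoints was 2912.5 bp. Scores of 90.3 at its first peak, 82.1 at its 10th and 108 at its 15th were separated by peaks as low as 13.6, and 5 peaks were in the top 10%.

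The other 6 of the 10 runs with the most peaks had 13 to 17 peaks each. The run of 17 on 2L at 13066635 to 13098955 had a median score of 28.6 and a highest score of 58.1. A pair of runs of 14 on 2L differed in strength, with a median score of 35.3 at 16519277 to 16536987 and of 25.6 at 19139850 to 19166448. A run of 14 on 3L at 19064332 to 19093574 had the lowest median of the 10, 21.7, and covered 34.9% of its span. Runs of 13 lay on 2L at 478653 to 506925, with a median of 29.3, and on 2R at 9805905 to 9829870, with a median of 22.1. Across all 195 runs the number of peaks in a run had nearly no rank relation to its median score (Spearman rho 0.0098) or to its coverage (rho 0.021). These coefficients describe 195 runs of the same list.

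**Figure D2:**
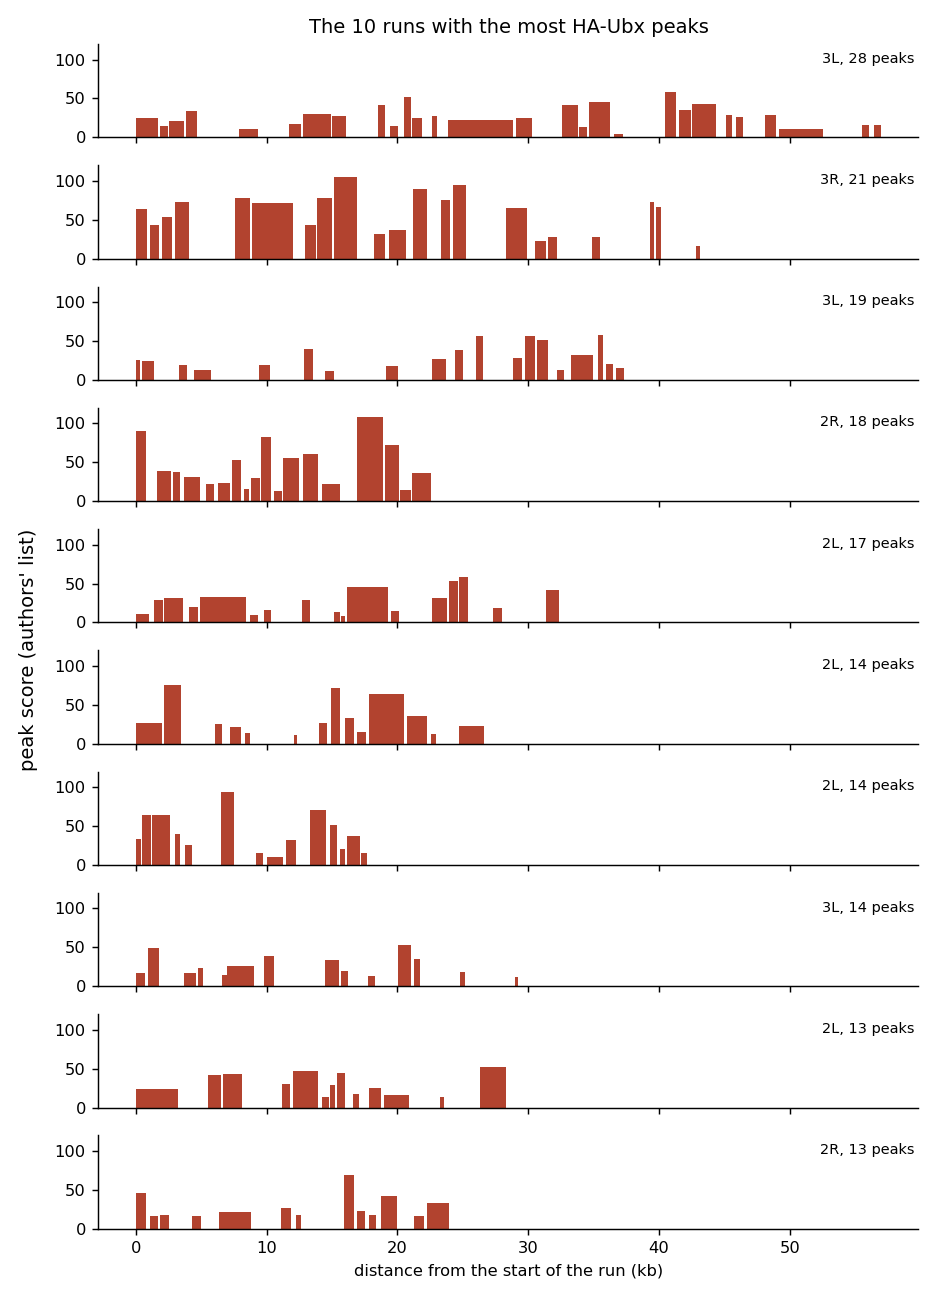
The 10 runs with the most HA-Ubx peaks, each drawn from its start (distance in kb on the horizontal axis), with 1 bar per peak as wide as the peak and as high as its score. The 28 peaks of the top panel stay below 60, whereas 12 of the 21 peaks of the second panel are above 58.3. Scores vary within each panel.

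Members had nearly the same median score as the other peaks of the arms and a higher 90th percentile. The single highest score lay outside the runs. The median score was 26.2 among members (interquartile range 17.1 to 41.2, 95% order-statistic interval of the median 25.3 to 27.4) and 25.3 among the others (16.6 to 39.6, interval 24.8 to 25.8), a difference of 0.95. The 90th percentile was 63.5 among members and 57.2 among the others. The top 10% of all scores on the arms, a share of 10.0% by definition, took in 190 members (12.3%, 95% Wilson interval 10.8% to 14.03%) and 623 other peaks (9.47%, 8.79% to 10.2%). The share of members was 1.30 times that of the others, and without the 3R run of 21 peaks, which held 12 of these members, the share was 11.7%. In another setting, peaks less than 1000 bp apart were joined before runs were sought, and each joined region took the highest score of its peaks. The difference of medians then turned round, with 25.5 among 99 members in 16 runs and 28.2 among the others. Scores and members of that setting are thus not those given above. Set against their 19.0% of all peaks on the arms, members made up 2 of the 10 highest scores, 3 of the top 25 (12%), 14 of the top 50 (28%), 22 of the top 100 (22%), 51 of the top 200 (25.5%) and 103 of the top 400 (25.75%). The highest score was 138 among the 1545 members and 174 among the 6578 other peaks, which are sets of unlike size.

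The direction was the same on each arm, although the sizes differed. The median score was 25.8 among members and 25.3 among others on 2L, 26.0 and 24.9 on 2R, 25.9 and 24.9 on 3L, and 27.3 and 25.7 on 3R. Under the same rule it was 28.3 and 23.2 on the X chromosome. The share in the top 10% was 11.3% among members and 9.56% among others on 2L, and 13.0% and 8.75% on 2R. It was 12.02% and 10.6% on 3L, and 12.9% and 8.94% on 3R. Within each arm the intervals of the members and of the others overlapped. These intervals also treat peaks of the same run as independent, so their overlap is not a test.

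Members were wider than the other peaks. The median width was 718 bp among members (interquartile range 495 to 1099 bp) and 628 bp among the others (434 to 978 bp), a difference of 90 bp. It was 643 bp among members and 589.5 bp among others on 2L, 752 and 639.5 bp on 2R, 719 and 637 bp on 3L, and 749 and 637 bp on 3R. On the X chromosome, under the same rule, it was 786 and 571 bp. Widths of at least 1496 bp, which 10.0% of the peaks on the arms reached, were found in 182 members (11.8%) and 633 others (9.62%). By run size, the median width was 745 bp in runs of 12 or more peaks, 684.5 bp in runs of 9 to 11, 719 bp in runs of 7 to 8 and 710.5 bp in runs of 6. Outside the rule it was 686 bp in runs of 5, 656.5 bp in runs of 4, and 616 bp both in runs of 2 to 3 and for peaks without a neighbour. Median scores showed no such gradient, with 26.0, 28.0, 26.6 and 24.9 in the 4 member classes against 24.6, 24.8, 25.3 and 25.8 in the 4 smaller ones. Peaks without a neighbour therefore had nearly the same median score as those in the longest runs. The 90th percentile of scores was 62.5 to 63.8 in the member classes and 56.2 to 59.9 in the smaller ones. The share in the top 10% was 12.1%, 12.9%, 12.5% and 11.7% in the member classes, and 11.2%, 9.49%, 8.81% and 9.91% in the smaller ones. In runs of 12 or more peaks, 31 of 257 peaks were in the top 10%, and 12 of these 31 lay in the 3R run of 21 peaks. The figures for the longest runs thus rest largely on 1 run. Width also limits how close midpoints can lie, so it is not independent of the rule.

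**Figure D3:**
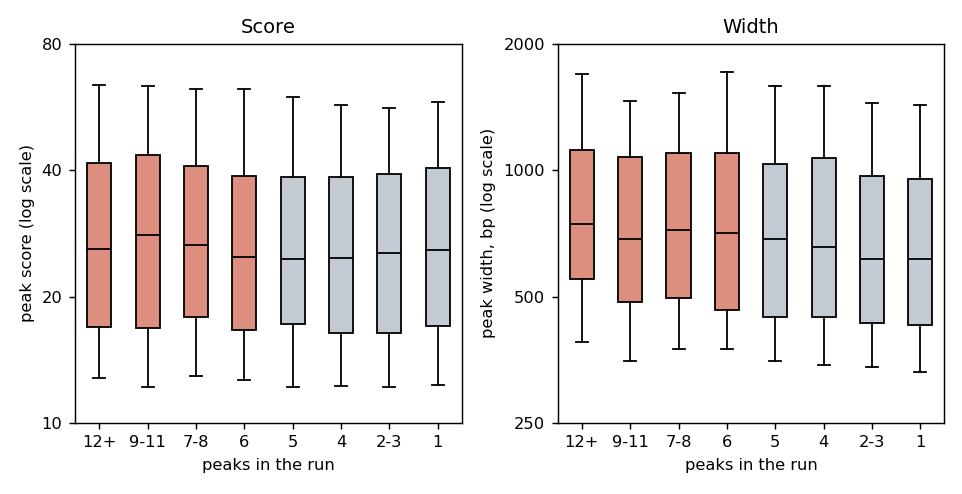
Score (left) and width in bp (right), both on log scales, by the number of peaks in the run, with boxes for the quartiles, lines for the medians and whiskers from the 10th to the 90th percentile. Red boxes are runs of 6 or more peaks and grey boxes smaller runs. The median width is 745 bp in the longest runs and 616 bp for peaks without a neighbour, whereas median scores stay between 24.6 and 28.0.

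Wider peaks had higher scores, more so among members (Spearman rho 0.25) than among the others (0.20), given as descriptions over 1545 and 6578 peaks. Split at the quartiles of width over all peaks of the arms, the score difference changed direction. In the narrowest class, up to 441.5 bp, the median score was 19.3 among members and 20.3 among others, and in the next, up to 642 bp, it was 24.5 and 25.9. In the third class, up to 1002 bp, it was 29.6 among members and 27.7 among others, and in the widest class it was 30.5 and 28.4. The share in the top 10% was 3.30% among members and 4.28% among others in the narrowest class, 10.3% and 8.79% in the next, 13.0% and 12.2% in the third, and 19.2% and 13.1% in the widest. In the widest class the 95% Wilson intervals of these shares were 15.9% to 23.1% among members and 11.5% to 14.8% among others. In the other classes the intervals overlapped. Such intervals cover counting error only and treat peaks as independent, which peaks of the same run are not. Whether the shares differ was not tested. In the second class the members thus had the lower median but the higher share of strong peaks, both with overlapping intervals. Of the 190 members in the top 10%, 88 were in the widest class, which held 458 of all 1545 members. Of the 623 other peaks in the top 10%, 205 were in that class, which held 1568 of all 6578 others.

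Strong and weak peaks stood side by side inside the runs. The highest score of a run was a median of 4.75 times its lowest, with a range of 1.34 to 27.7 times. Of the 195 runs, 110 (56.4%) held at least 1 peak of the top 10%, 45 held 2 or more and 18 held 3 or more. That class took in 10.0% of all peaks on the arms and 12.3% of members. Such counts grow with the number of peaks in a run and were not compared with an expected number. The median of the run lay above 25.5, the median of all peaks on the arms, in 112 runs (57.4%). On the log2 scale the SD of scores within runs was 0.84 and the SD between runs 0.22, so that 6.2% of the variance (intraclass correlation 0.062) lay between runs. Among 1350 adjacent pairs of members, the higher score was a median of 1.75 times the lower, against 1.74 times in 2924 pairs in smaller runs. The rank correlation of adjacent scores was 0.077 among members and 0.052 in the smaller runs, given as descriptions, since neighbouring pairs share peaks.

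The strongest peak had no fixed place in the run. It was the first or last peak in 61 of 195 runs (31.3%, 95% Wilson interval 25.2% to 38.1%), and end positions made up a mean of 27.2% of the peaks of a run. Interior members had a median score of 26.0 and a median width of 715 bp, and end members had 26.9 and 727.5 bp. The top 10% took in 12.1% of interior members (10.4% to 14.1%) and 12.8% of end members (9.86% to 16.5%). The strongest peak was also the widest one in 41 of the runs.

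**Figure D4:**
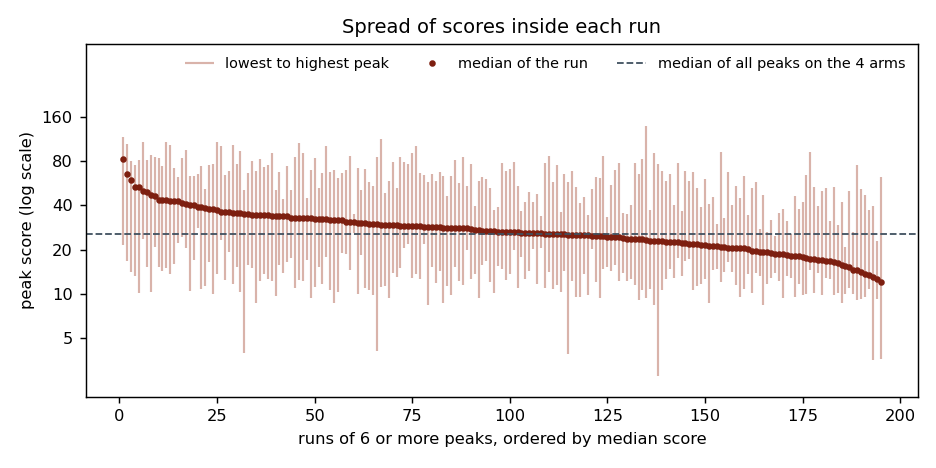
Scores in each of the 195 runs (log scale), ordered by median score, with a line from the lowest to the highest peak of the run, a dot for its median and a dashed line at 25.5, the median of all peaks on the 4 arms. The medians lie between 82.7 and 12.04, while the lines overlap across nearly the whole set.

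The 5 runs with the highest median score lay on 2R, 3L and 3R. The highest median score, 82.7, belonged to a run of 8 peaks on 3L at 10729749 to 10741508, whose scores ran between 21.5 and 117 and which had 5 peaks in the top 10%. After the run of 21 peaks on 3R came a run of 7 peaks on 2R at 6441342 to 6457398 with a median of 59.6. A run of 8 on 3R at 17475527 to 17486896 and a run of 9 on 3L at 17556351 to 17578227 each had a median of 53.0, with 2 of 8 and 4 of 9 peaks in the top 10%. Scores of this last run reached from 10.2 to 81.5, so a high median did not exclude weak members.

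The 5 runs with the lowest median score were chosen by that value, so low scores in many of their peaks are built in. The lowest median, 12.04, was that of 8 peaks on 2R at 10972521 to 10983895, but its seventh peak, at 10982778 to 10983290, scored 62.2. A run of 6 peaks on 3R at 1041051 to 1058462 had a median of 12.6 and no peak above 22.9. Runs of 8 peaks on 2R at 5984001 to 5999553 and at 6504927 to 6524605 had medians of 13.1 and 13.5. Their highest scores were 39.9 and 37.2. A run of 9 peaks on 3L at 18880896 to 18894954 had a median of 13.6 and a highest score of 46.7. Arm 2R thus held 3 of the 5 runs with the lowest median score.

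The 10 members with the highest scores came from 8 runs. The first, with 138, was the ninth of 13 peaks in a run on 3R at 11845875 to 11869298, measured 619 bp and had rank 5 among all peaks of the 4 arms. The same run held another of the 10, at 11851238 to 11852538 with a score of 103, although its median score was 23.2. The second member, with 117, was the third peak of the run on 3L at 10729749 to 10741508. A run of 9 peaks on 3L at 10842911 to 10863193 held 2 of the 10, which scored 113 at 10849645 to 10851327 and 103 at 10860833 to 10861566. The other 5 scored between 105 and 108 and lay on 2L at 8820335 to 8820925 and at 8097154 to 8098215, on 3R at 27041438 to 27041942 and at 12061977 to 12063732, and on 2R at 7089690 to 7091675. The widest members were not among these 10. The widest, of 5623 bp, lay on 3R at 1129948 to 1135570 and scored 17.2, and the next, of 4955 bp on 3L at 19898696 to 19903650, scored 18.0. Of the next 3 by width, a peak on 3R at 10563427 to 10568327 with a width of 4901 bp had a score of 58.0, and the other 2 had scores of 21.7 and 20.8.

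One run differed from the rest in the regularity of its spacing. The SD of the distances between adjacent midpoints was a median of 53.4% of their mean over the 195 runs (interquartile range 43.8% to 61.9%). In the run of 6 peaks at the end of 3R, at 27899035 to 27904661, it was 1.15%, and the next lowest value was 12.7%. This run also had the shortest span, 5.63 kb. The 5 distances were 1000.5, 969, 983.5, 988.5 and 983.5 bp, with a mean of 985 bp. The 6 peaks were 736, 701, 673, 694, 693 and 668 bp wide and scored 26.1, 28.6, 28.3, 35.0, 34.5 and 32.6. The highest score was 1.34 times the lowest, the smallest such ratio of any run, and no peak of the list lay farther out on 3R. In the Release 6 genome, which is not the build of the list and on which no peak was placed, the outermost 6000 bases of 3R matched themselves at 99.98% of bases when shifted by 984 bp. The best shift between 500 and 3000 bp matched 89.9% of bases on 3L (2744 bp), 87.9% on 2L (916 bp) and 29.2% on 2R (2646 bp). Whether the outer end of 3R is the same sequence in dm3, and how reads that fit several repeats were placed, was not tested. This run was singled out after its spacing had been seen.

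**Figure D5:**
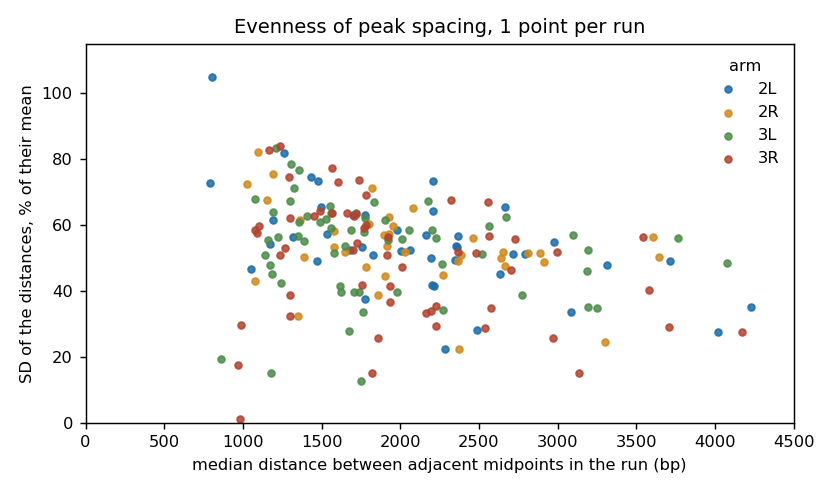
Evenness of spacing in the 195 runs, as the SD of the distances between adjacent midpoints in percent of their mean (vertical axis), against the median distance in bp (horizontal axis), with 1 point per run coloured by arm. The run at the end of 3R lies at 983.5 bp and 1.15%, below all other points, of which the lowest is at 12.7%.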

How the data were processed

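The authors deposited 1 list of HA-Ubx peaks, named in the labels of both immunoprecipitation replicates, with sequence, start, end, peak name and a score per peak. The submitters' processing notes name BWA 0.7.12, MACS2 and the build dm3. Thresholds, the use of the input and the way both replicates entered 1 list are not given in those notes.

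Peaks on 2L, 2R, 3L and 3R were sorted by midpoint and split into runs wherever adjacent midpoints were over 5000 bp apart. The limits for the top 10% by score and by width were taken over all 8123 peaks of these arms. Alternatives that joined or left out peaks by score took the score limit anew over their own list. Shares have Wilson 95% intervals and medians exact order-statistic 95% intervals, both for counting error only.

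Some scores are exact ties, shared by 26.8% of members and 36.5% of the others with another peak of the arms. The reference held here is Release 6, where 3R ends 4.17 Mb beyond the last peak, so it was used neither to place peaks nor to read their sequence, and no gene is assigned. The run finder was tested on simulated lists. Calculations used pandas 2.3.3, numpy 2.4.6 and scipy 1.17.1 under Python 3.11.15, and plots used matplotlib 3.10.9.

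The rule, the lists and the items described were chosen with earlier results of these data known. Named runs are the 10 with the most peaks, the 5 with the highest and the 5 with the lowest median score, and those with the longest and shortest span. Their strongest peaks and the 10 strongest members were also named, and other runs and bins after their values were seen. Alternatives were other distances (2500 and 10000 bp), other sizes (5 and 8 peaks), edge distances, joined peaks, the upper 50% of peaks by score and, added after seeing the data, leaving out 1 run, limits per arm and leaving out scores under 5.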

Additional observations from a re-analysis of the deposited data

How the results depend on the processing

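The number of dense runs depends on the rule, as its construction implies. The 195 runs, 1545 members and 19.0% of peaks became 48 runs, 327 members and 4.03% with midpoints up to 2500 bp apart, and 410 runs, 3981 members and 49.0% with 10000 bp. With at least 5 peaks there were 324 runs and 26.96% of peaks, and with at least 8 there were 80 runs, 807 members and 9.93%. Edge distances gave 24.7%. Joining peaks less than 1000 bp apart left 16 runs with 99 members (1.66%), and the upper 50% of peaks by score left 20 runs with 149 members (3.67%).

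The difference of median scores, members minus others, was 0.95 and became 2.45 with 2500 bp and 3.05 in the upper 50%. It turned to -2.72 after joining, where each joined region took the highest score of its peaks. Medians were then 25.5 among the 99 members and 28.2 among the others, and the cause was not tested. The difference stayed between 0.43 and 1.13 under the other settings run. The excess of members in the top 10%, 2.83 percentage points, became 4.87 with 2500 bp, 0.62 with 10000 bp and 8.41 in the upper 50%. In the upper 50%, runs were sought only among the 4061 peaks kept for their score. The top 10% was then that of these 4061 peaks, so 8.41 and 3.05 are not the same measures as 2.83 and 0.95. Without the 3R run of 21 peaks it was 2.21. The difference of median widths, 90 bp, stayed between 63 and 100 bp under all 9 settings run for it. In all, 28 of 52 recalculated values stayed within 1.5 times the count or within the interval of the value. Another 23 moved outside, and 1, the difference of median scores after joining, turned round. For a difference, the interval was that of the members with the value of the others held fixed.

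No paired analysis was possible because both replicates share 1 peak list, and for the same reason leaving out a replicate was not run. The depth of the libraries is unknown. Genes, promoters and sequences of the runs were not analysed here.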
